A study of Saccharomyces cerevisiae with 8 samples.

Results

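Contig NCSL01000092.1 of an SK1 budding yeast assembly carried some of the strongest peaks in a CRAC experiment on the m6A reader Pho92, in irradiated cells with the tagged protein and in untagged cells. All peaks listed on this contig were taken, on both strands, and peaks that touched on the same strand in any of the 8 libraries were merged. This gave 72 regions built from 460 peaks, out of 105293 regions and 226287 peaks in the whole series. Per library the contig had 64 and 68 peaks in the ime4 mutant, 62 and 58 in Pho92-HTP, 48 and 53 in no UV and 53 and 54 in untagged wild type. Members were taken by position, but the contig itself was chosen with earlier results of these data known.

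CRAC recovers RNA that ultraviolet light has crosslinked to a protein carrying the HTP tag (polyhistidine, a TEV protease site and protein A), which is purified under denaturing conditions and whose RNA is then sequenced. All groups were diploid SK1 cells in which copper induces IME1, the gene that starts meiosis (pCUP-IME1), and were taken after 5 h in sporulation medium, 3 h after adding 50 μM copper sulfate. The ime4 mutant group expressed Pho92-HTP in cells mutated in IME4 and was irradiated at 254 nm for 80 s; the Pho92-HTP group had the same tag and irradiation with IME4 not labelled as mutated. The no UV group expressed Pho92-HTP and was labelled as having no treatment. The untagged wild type group had no HTP tag and was irradiated like the first groups. Each group had 2 libraries, described by the submitters as biological replicates, and every sample received the same amount of crosslinked fission yeast cells with Luc7-HTP as a spike-in. The sample titles do not give the kind of ime4 mutation, but the names of this group's peak lists read ime4ko, which stands for a knockout. Cultures were analysed in bulk, so fewer cells contributing an RNA and less of it per cell cannot be told apart.

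Pho92 is the YTH-domain protein of budding yeast and binds mRNA that carries m6A, the methyl mark that Ime4, the catalytic subunit of the methyltransferase complex, places on transcripts during meiosis. In a CRAC experiment the untagged strain gives the RNA that stays on the purification resin without the bait. Tagged cells without irradiation give RNA recovered with the bait but without crosslinks. RNA species that are very abundant in the cell are a familiar source of signal in both kinds of control. The lists name no gene and no annotation of SK1 contigs was used here, so the regions are described by position, as the lists give it, and no gene is assigned to them.

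Each listed peak carries a score, which from the values equals the squared summit height over the peak width. Height, given here in read equivalents, behaves as the number of reads at the summit after Gaussian smoothing (SD 15 nt). The normalized score is the score times 1 spike-in factor per library. Because of the square, differences in log2 score are larger than those in log2 height. Where no peak is listed a region's value is 0, which does not show that the RNA was absent, since the shoulder of a neighbouring peak can lack a peak of its own. The factors in the no UV sheets (0.428 and 0.746) are those that the authors' deposited table gives for untagged wild type, and the factors in the untagged sheets (1.13 and 0.771) are those it gives for no UV, so levels between these controls depend on which is right. The table's numbers of peaks above 0.9 for these libraries, 51 and 58 in no UV and 33 and 20 in untagged wild type, are those that the sheets' factors give, whereas the table's factors would give 64 and 58 in no UV and 24 and 20 in untagged wild type. The table also gives spike-in scores, 0.391 and 0.572 in no UV and 1.03 and 0.591 in untagged wild type. Its factors are ratios of these scores, so the table does not settle which set is right. The sheets' factors are used unless stated. Totals of reads are not known here, and values are therefore given without an estimate of their counting error.

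The contig gave similar spike-in scaled signal in the ime4 mutant and in Pho92-HTP, and far less in both controls. Scaled summit heights added up to 737163 and 972269 read equivalents in the ime4 mutant, 866439 and 856335 in Pho92-HTP, 14626 and 17490 in no UV, and 37531 and 19302 in untagged wild type. The ime4 mutant and Pho92-HTP overlapped, and each of these groups lay above both control groups. The no UV libraries lay below the untagged libraries with the sheets' factors only. Group means were 854716 ± 166245 in the ime4 mutant and 861387 ± 7144 in Pho92-HTP (SD, n = 2 each), a ratio of 0.992. They were 16058 ± 2025 in no UV and 28417 ± 12890 in untagged wild type (SD, n = 2 each). Pho92-HTP was thus 53.6 times the no UV level and 30.3 times the untagged level. With the table's factors the sums were 23726 and 17770 in no UV and 23136 and 18999 in untagged wild type, which overlap, and Pho92-HTP was 41.5 times no UV and 40.9 times untagged wild type. The smallest two-sided exact permutation p for 2 libraries against 2 is 0.333, so these totals carry no test.

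Summed raw scores were 376546 and 1234380 in the ime4 mutant, 999357 and 209961 in Pho92-HTP, 398 and 272 in no UV and 4994 and 1980 in untagged wild type. After normalization the sums were 651329 and 1241990 in the ime4 mutant, 999357 and 1242980 in Pho92-HTP, 170 and 203 in no UV and 5627 and 1526 in untagged wild type. The ime4 mutant and Pho92-HTP libraries overlapped in both forms, and both untagged libraries exceeded both no UV libraries in both forms. Peak lengths did not follow these sums: peaks covered 1868 and 1994 nt of the contig in the ime4 mutant, 1842 and 1768 nt in Pho92-HTP, 1698 and 1810 nt in no UV, and 1585 and 1575 nt in untagged wild type.

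Seen as a share of each library, the contig led the untagged libraries and was a small part of the unirradiated ones. It held 33.2% and 44.3% of all summed height in the ime4 mutant, 30.2% and 27.2% in Pho92-HTP, 5.31% and 6.06% in no UV, and 66.4% and 62.7% in untagged wild type. By height the contig was thus most of the untagged libraries and a minor part of the no UV libraries. By score, which weights the strongest peaks, it held 42.2% and 75.1% in the ime4 mutant, 75.5% and 63.0% in Pho92-HTP, 0.0525% and 0.0743% in no UV, and 95.2% and 92.9% in untagged wild type, so nearly all no UV score lay elsewhere. Of the peaks above the authors' threshold of 0.9 in normalized score, the contig held 48 of 336 and 51 of 333 in the ime4 mutant and 49 of 1061 and 46 of 1101 in Pho92-HTP. It held 24 of 51 and 34 of 58 in no UV, and 26 of 33 and 18 of 20 in untagged wild type. The numbers on the contig were alike in the ime4 mutant and Pho92-HTP while the whole lists were not, so the shares were 14.3% and 15.3% in the ime4 mutant against 4.62% and 4.18% in Pho92-HTP.

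**Figure D1:**
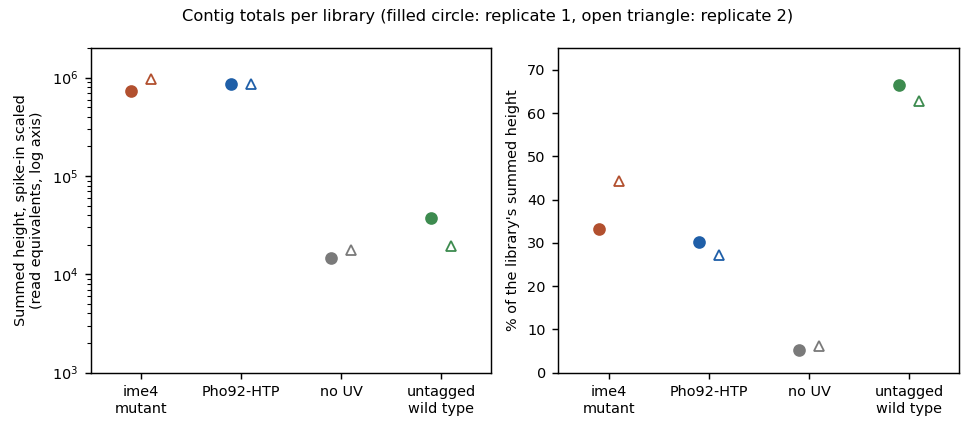
Contig totals per library. The left panel shows summed height in read equivalents after spike-in scaling (log axis) and the right panel the percentage of the library's summed height; circles are replicate 1 and triangles replicate 2. The ime4 mutant and Pho92-HTP libraries overlap on the left between 737163 and 972269, and the untagged libraries are highest on the right at 66.4% and 62.7%.

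Signal lay almost wholly on the plus strand, which carried 62 of the 72 regions and at least 99.965% of the height in every library. Minus-strand peaks numbered 4 and 5 in the ime4 mutant, 2 and 2 in Pho92-HTP, 0 and 1 in no UV and 0 and 0 in untagged wild type. They formed 10 regions, 7 of which were listed in a single library, and none came near the threshold of 0.9. The strongest by mean score, at 3652 to 3684, was listed only in Pho92-HTP replicate 1, with a normalized score of 0.00972 and a height of 21.0 read equivalents. Only Pho92-HTP libraries had a peak at 3258 to 3335, scored 2.21e-05 and 0.00494. At 3170 to 3196, ime4 mutant replicate 1 alone had a peak, with a score of 0.00247. No minus-strand region entered a test.

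The plus-strand regions spanned positions 561 to 5513, with a median length of 40.5 nt and a union of 3439 nt. Of these, 30 were listed in all 8 libraries, 21 in 5 to 7, 8 in 2 to 4 and 3 in a single library. Peaks were narrow in all groups, with median widths of 29 to 32 nt per library. Median distances between neighbouring summits were 69 and 67 nt in the ime4 mutant, 74 and 82 nt in Pho92-HTP, 98 and 94 nt in no UV and 75 and 70 nt in untagged wild type. Regions above 0.9 in both libraries of a group numbered 44 in the ime4 mutant, 41 in Pho92-HTP, 22 in no UV and 15 in untagged wild type. In all 8 libraries 12 regions exceeded 0.9, and 17 of the 72 did so in none.

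**Figure D2:**
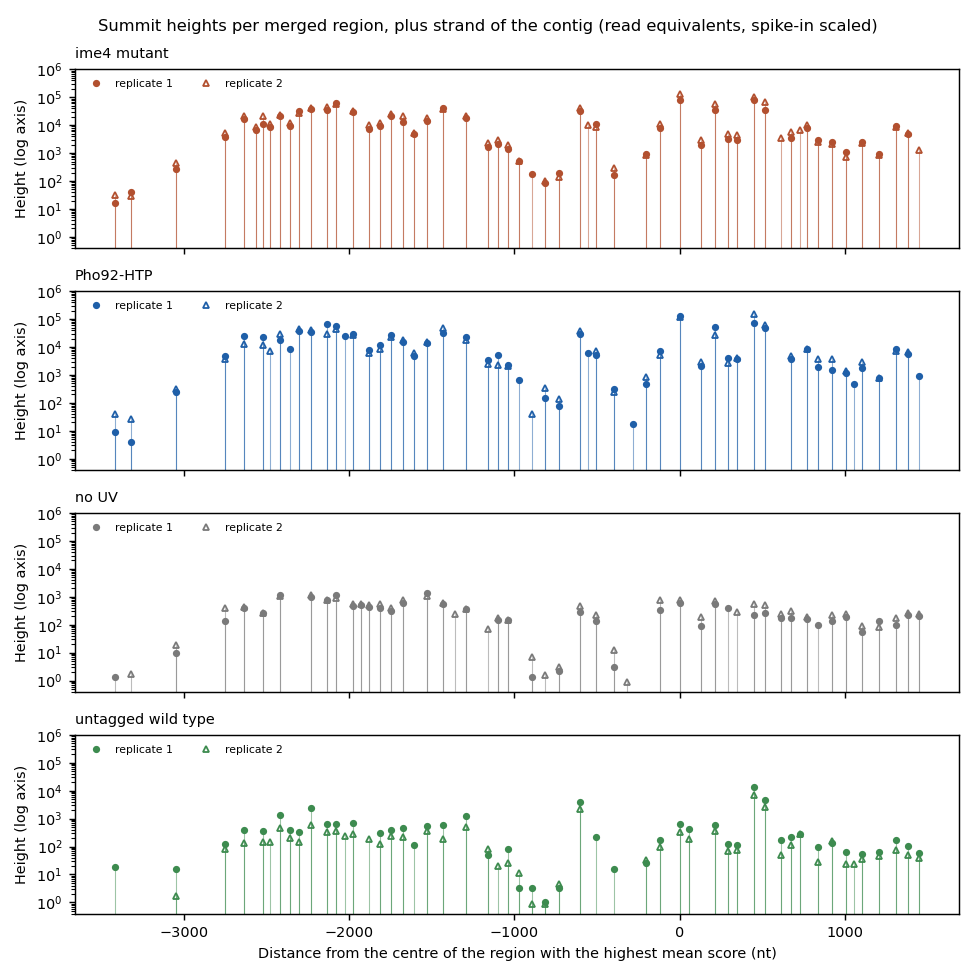
Spike-in scaled summit height (read equivalents, log axis) of each plus-strand region along the contig, by distance in nt from the centre of the region at 4013 to 4046. One panel per group, circles for replicate 1 and triangles for replicate 2; regions with no listed peak have no symbol. The irradiated Pho92-HTP libraries of both groups reach 80556 to 135478 at the centre, where no UV and untagged libraries lie between 323 and 764, and untagged wild type is highest at 4456 to 4504, with 14124 and 7314.

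Along the contig most of the signal fell into 2 broad blocks. In windows of 250 nt, the 3 windows from 500 to 1249, at the start of the profile, and the window from 3000 to 3249, between the blocks, each held under 1% of the height in all libraries. The stretch between the blocks was not low throughout. Its window from 3250 to 3499, outside both blocks, held 10.5% and 11.5% of the height in untagged wild type. Regions starting below position 3000 held 55.8% and 48.3% of the contig's height in the ime4 mutant, 54.6% and 46.5% in Pho92-HTP, 69.1% and 62.8% in no UV and 29.5% and 26.5% in untagged wild type. Regions lying between 3750 and 4750 held 33.8% and 41.2% in the ime4 mutant, 37.1% and 44.0% in Pho92-HTP, 19.1% and 24.4% in no UV and 56.6% and 58.0% in untagged wild type. No UV libraries were thus weighted towards the first block and untagged libraries towards the second, with both irradiated Pho92-HTP groups in between. These shares are taken within a library and no spike-in factor can move them.

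Single windows differed in the order of the groups. The window from 4250 to 4499 held 11.3% and 11.8% of the height in the ime4 mutant, 9.43% and 18.2% in Pho92-HTP, 4.38% and 4.80% in no UV, and 38.3% and 38.6% in untagged wild type. In the window from 3250 to 3499 the shares were 4.46% and 5.29% in the ime4 mutant, 4.03% and 4.52% in Pho92-HTP, 2.02% and 2.67% in no UV and 10.5% and 11.5% in untagged wild type. In both windows the untagged libraries were highest and the no UV libraries lowest, without overlap. The window from 4000 to 4249 held 15.8% and 20.1% in the ime4 mutant, 20.8% and 17.2% in Pho92-HTP, 8.30% and 9.37% in no UV and 4.45% and 4.56% in untagged wild type, so that here the untagged libraries were lowest. The window from 1750 to 1999 held 18.2% and 14.97% in the ime4 mutant, 18.0% and 13.1% in Pho92-HTP and 20.0% and 15.8% in no UV, against 9.92% and 6.81% in untagged wild type. Both irradiated Pho92-HTP groups and no UV overlapped in that window.

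As a description over the 20 windows, Spearman's rho was 0.979 to 0.989 between ime4 mutant and Pho92-HTP libraries, a range that holds the 0.985 between the ime4 mutant replicates and lies above the 0.970 between the Pho92-HTP replicates. Between Pho92-HTP and untagged libraries it was 0.875 to 0.940, between Pho92-HTP and no UV libraries 0.806 to 0.928, and between no UV and untagged libraries 0.708 to 0.765. The windows of a library share its depth, and neighbouring windows share RNA. The share of height that would have to be moved to turn one profile into the other was 7.71% to 10.9% between ime4 mutant and Pho92-HTP libraries. It was 8.72% between the ime4 mutant replicates and 14.1% between the Pho92-HTP replicates. Between Pho92-HTP and untagged libraries it was 32.0% to 46.4%, between Pho92-HTP and no UV libraries 22.2% to 30.5%, and between no UV and untagged libraries 48.8% to 54.0%, although replicates differed by 11.6% in no UV and 6.14% in untagged wild type.

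**Figure D3:**
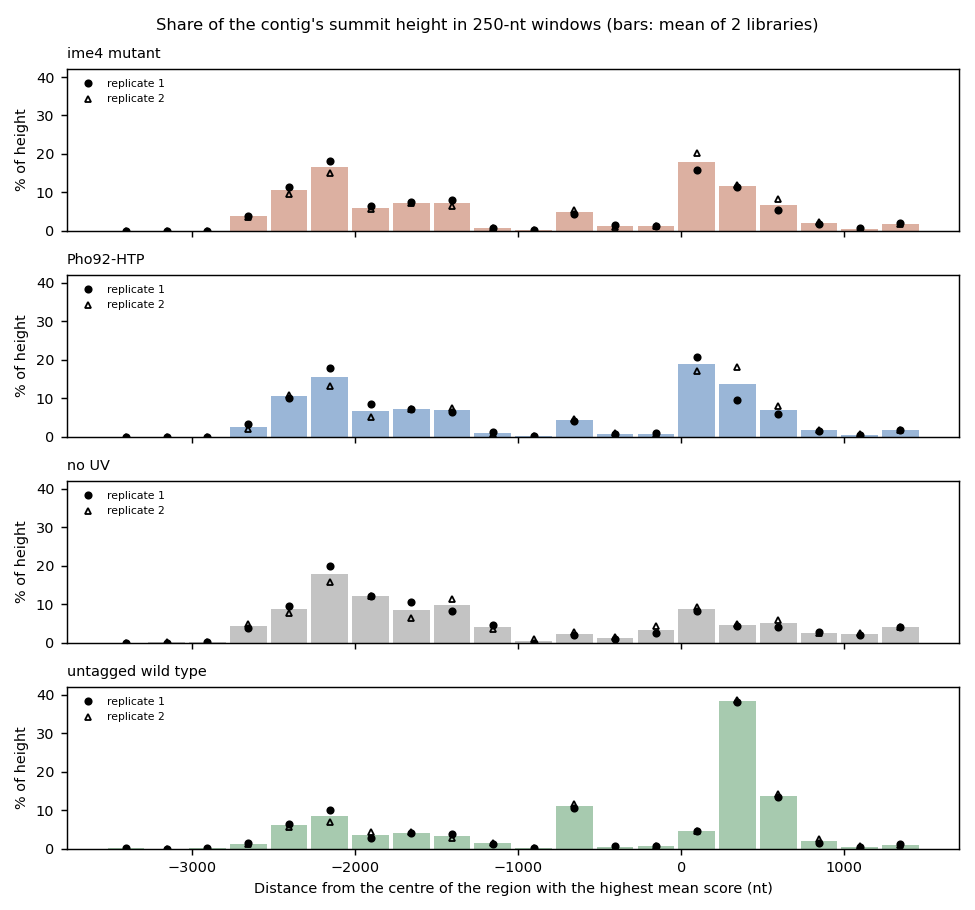
Percentage of the contig's summit height in windows of 250 nt, by distance in nt from the centre of the region at 4013 to 4046. Bars are the mean of 2 libraries, circles replicate 1 and triangles replicate 2. The ime4 mutant and Pho92-HTP panels have the same outline, and the untagged panel has 1 tall window at 38.3% and 38.6%.

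The region at 4013 to 4046 had the highest mean score of the contig and was the strongest of both irradiated Pho92-HTP groups, but not of the controls. Its normalized scores were 148071 and 418804 in the ime4 mutant, 364950 and 314698 in Pho92-HTP, 7.74 and 13.8 in no UV, and 9.32 and 2.46 in untagged wild type. The mutant libraries enclosed the Pho92-HTP libraries, and the controls lay far below. The control groups overlapped with the sheets' factors but not with the table's, which gave 20.4 and 14.2 in no UV and 3.54 and 2.39 in untagged wild type. By mean score it ranked 1 in the ime4 mutant, 1 in Pho92-HTP, 6 in no UV and 10 in untagged wild type. The raw scores were 85603 and 416240 in the ime4 mutant, 364950 and 53158 in Pho92-HTP, 18.1 and 18.4 in no UV and 8.27 and 3.196 in untagged wild type.

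The region at 4456 to 4504 was next by mean score, and led the untagged libraries. Its normalized scores were 132168 and 251550 in the ime4 mutant, 128530 and 506313 in Pho92-HTP, 0.855 and 7.46 in no UV, and 4409 and 1183 in untagged wild type. The ime4 mutant libraries lay within the Pho92-HTP range, and both untagged libraries lay above both no UV libraries. It ranked 2 in the ime4 mutant, 2 in Pho92-HTP, 15 in no UV and 1 in untagged wild type. Its strongest peak held 78.4% and 77.5% of the contig's score in the untagged libraries.

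The neighbouring region at 4527 to 4558 had the same order of the controls. Normalized scores were 34631 and 122953 in the ime4 mutant, 59394 and 107822 in Pho92-HTP, 1.48 and 5.88 in no UV, and 606 and 186 in untagged wild type. It ranked 4 in the ime4 mutant, 3 in Pho92-HTP, 16 in no UV and 2 in untagged wild type. Compared within a library, where no scaling enters, the height at 4456 to 4504 was 0.960 and 0.775 times that at 4013 to 4046 in the ime4 mutant, 0.575 and 1.27 times in Pho92-HTP and 0.390 and 0.736 times in no UV, but 22.8 and 22.6 times in untagged wild type. The height at 4527 to 4558 was 0.451 and 0.515 times that at 4013 to 4046 in the ime4 mutant, 0.371 and 0.536 times in Pho92-HTP and 0.430 and 0.643 times in no UV, but 7.49 and 7.93 times in untagged wild type. A region at 3410 to 3444, chosen after its values were seen because it ranked 3 in the untagged libraries, gave 0.405 and 0.303 times in the ime4 mutant, 0.222 and 0.328 times in Pho92-HTP, 0.496 and 0.607 times in no UV and 6.36 and 6.85 times in untagged wild type. Together these 3 regions held 19.9% and 22.2% of the contig's height in the ime4 mutant, 17.3% and 29.3% in Pho92-HTP, 5.32% and 8.68% in no UV, and 60.4% and 62.6% in untagged wild type.

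The other 3 regions of highest mean score did not stand out in untagged wild type. At 1935 to 1967, normalized scores were 90230 and 80266 in the ime4 mutant, 78730 and 43980 in Pho92-HTP, 31.7 and 18.5 in no UV, and 9.89 and 3.15 in untagged wild type. This was the strongest region of the no UV group by mean score, and both mutant libraries lay above both Pho92-HTP libraries. At 1880 to 1913, scores were 30750 and 48604 in the ime4 mutant, 94051 and 20371 in Pho92-HTP, 14.6 and 13.1 in no UV, and 9.61 and 2.72 in untagged wild type. At 4223 to 4264, scores were 25484 and 71687 in the ime4 mutant, 55566 and 15455 in Pho92-HTP, 5.70 and 10.1 in no UV, and 6.84 and 2.98 in untagged wild type. The irradiated Pho92-HTP groups overlapped at both of these positions, and no UV libraries exceeded untagged libraries at 1880 to 1913. At 4223 to 4264 the controls overlapped with the sheets' factors, but with the table's no UV had 14.99 and 10.5 and untagged wild type 2.60 and 2.89, without overlap.

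**Figure D4:**
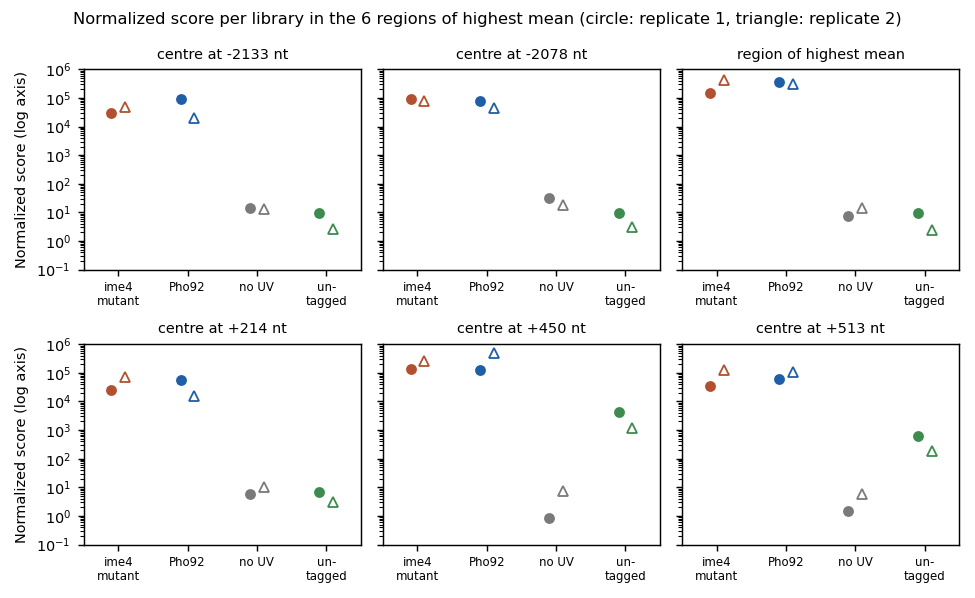
Normalized score (log axis) per library in the 6 regions of highest mean score, each panel titled with its distance from the region at 4013 to 4046; circles are replicate 1 and triangles replicate 2. In the panels for 4456 to 4504 and 4527 to 4558 the untagged libraries (4409 and 1183; 606 and 186) lie above no UV, while in the other panels both control groups lie between 2.46 and 31.7.

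Signal in no UV was spread more evenly. Counting down from the strongest, 50% of the contig's height was reached with 7 and 7 regions in the ime4 mutant, 7 and 6 in Pho92-HTP, 9 and 11 in no UV and 3 and 2 in untagged wild type. A pair of positions, chosen after their values were seen because they ranked 2 and 4 in no UV, show this. The region at 1589 to 1635 held 2.93% and 2.47% of the height in the ime4 mutant, 2.11% and 3.42% in Pho92-HTP, 7.70% and 6.26% in no UV, and 3.48% and 2.35% in untagged wild type. The region at 2454 to 2547 held 1.99% and 1.90% in the ime4 mutant, 1.62% and 1.80% in Pho92-HTP, 8.98% and 6.27% in no UV, and 1.43% and 1.80% in untagged wild type. At both positions the no UV share was above that of all the other libraries.

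The ime4 mutant was compared with Pho92-HTP to ask whether recovery of RNA from the contig depends on the methyltransferase gene. No region of the contig was called lower in the mutant. With limma on log2 normalized scores and Benjamini-Hochberg adjustment over all 947 tested regions of the series, 47 regions of the contig passed the filter (above 0.9 in at least 2 libraries of the fit) and were tested, of which 0 were called lower; an unadjusted p of 0.05 gave 0 as well. Over all tested regions 62.1% were called lower, a share that depends on the filter. Of the 947 tested regions 601 passed it through the Pho92-HTP libraries alone, where they had to be high, against 0 of the contig's 47. Without Pho92-HTP replicate 1 the number called lower was 33 of 329, and without Pho92-HTP replicate 2 it was 22 of 327. With raw scores it was 261 of 576, and with no filter 2846 of 104212. The contig's 0 is therefore no measure of a difference from the rest of the series. A single region was called higher, where 0.739% of all tested regions were. Among the 41 regions of the contig listed in all 4 libraries, log2 differences ranged from -1.002 to 1.25 with a median of 0.07, 22 being positive and 19 negative. The median over all tested regions was -6.80, but -0.34 without Pho92-HTP replicate 1, 0.84 without Pho92-HTP replicate 2, -2.25 on raw scores and -0.49 with no filter, so it gives no fixed level to set the contig against. Among the 41 regions of the contig listed in all 4 libraries, the smallest limma adjusted p was 0.183 and the median SE was 0.70.

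The precision of these comparisons is limited, with a median half-width of the 95% interval of 1.94 on the log2 score scale. At 4013 to 4046 the difference, ime4 mutant minus Pho92-HTP, was -0.44 (SE 1.10, 95% interval -3.49 to 2.60, limma adjusted p = 0.780). At 4456 to 4504 it was -0.48 (SE 1.20, interval -3.82 to 2.85, limma adjusted p = 0.780), and at 4527 to 4558 it was -0.29 (SE 1.07, interval -3.26 to 2.67, limma adjusted p = 0.853). Without the spike-in factor these 3 differences were 0.44, 0.40 and 0.59, so their sign is not set by these data. The extremes of the range were named after seeing it. The highest was 1.25 at 3498 to 3550 (interval -0.55 to 3.04, limma adjusted p = 0.183). There the scores were 2630 and 1835 in the ime4 mutant against 661 and 1296 in Pho92-HTP, without overlap. The lowest was -1.002 at 5011 to 5055 (interval -2.57 to 0.57, limma adjusted p = 0.218), a value that 2956 to 3029 shared, with scores at 5011 to 5055 of 28.4 and 16.7 in the ime4 mutant against 35.7 and 53.3 in Pho92-HTP. In scaled height, the ratio of the ime4 mutant to Pho92-HTP over the 42 regions listed in these 4 libraries and above 0.9 in a group mean had a median of 0.989 and ran from 0.373 at 3194 to 3237 to 1.57 at 3862 to 3961.

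The region called higher, at 1455 to 1472, had scores of 1909 and 4303 in the ime4 mutant and no listed peak in Pho92-HTP (limma adjusted p = 0.00142). It passed the filter through the ime4 mutant libraries alone, where it had to be high. The call therefore rests on the filter and the listing and does not by itself measure a difference. Pho92-HTP peaks ended 19 and 20 nt away and scored 7672 and 1038. Joining peaks within 50 nt put it in 1 region with far stronger peaks, such as those at 1935 to 1967. That joined region had a difference of -0.032, which does not test this place by itself. With either ime4 mutant library left out, the region at 1455 to 1472 no longer passed the filter for testing. The number of regions called higher was 3 without Pho92-HTP replicate 1 and 2 without Pho92-HTP replicate 2.

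Pho92-HTP was compared with untagged wild type to set the contig's signal against RNA recovered without a bait. Signal was higher in Pho92-HTP at 39 of the 51 tested regions (76.5%) and lower at 0, where 96.4% of all 951 tested regions of the series were higher and 0% lower by the same limma test; 0 of the 51 were lower at an unadjusted p of 0.05. The number lower was 2 without ime4 mutant replicate 1, 1 without ime4 mutant replicate 2 and 2 without Pho92-HTP replicate 1. In the 34 regions listed in all 4 libraries the log2 difference ranged from 6.80 to 16.11 with a median of 11.02, and 32 of them passed the test. The median over all tested regions of the series was 16.32, which includes regions with no listed untagged peak and so depends on the pseudocount. In this fit 886 of the 951 regions, against 15 of the contig's 51, exceeded 0.9 in no control library, so they passed the filter through the irradiated Pho92-HTP groups, and the shares called are not comparable. Of the 12 regions not called, 10 lacked a peak in at least 1 of the 4 libraries. Among the listed regions the margin over untagged wild type was widest at 4013 to 4046 and narrowest at 4456 to 4504. Chosen after values were seen, 5178 to 5297 at 6.94 (SE 0.83) and 3410 to 3444 at 6.98 (SE 0.82) were almost as narrow. Untagged scores at 5178 to 5297 were only 0.0896 and 0.0504.

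At 4013 to 4046 Pho92-HTP exceeded untagged wild type by 16.11 on the log2 score scale (SE 0.86, 95% interval 14.01 to 18.22, limma adjusted p = 7.35e-06) and 261 times in scaled height. At 4456 to 4504 the difference was 6.80 (SE 1.29, interval 3.62 to 9.99, limma adjusted p = 0.00221) and the height ratio 10.4. At 4527 to 4558 it was 7.90 (SE 1.05, interval 5.32 to 10.47, limma adjusted p = 3.74e-04), with a height ratio of 15.4. The intervals of these last 2 regions lie below that of 4013 to 4046; the differences between regions were not tested. At 1935 to 1967 the difference was 13.36 (SE 0.73), at 1880 to 1913 it was 13.06 (SE 0.97) and at 4223 to 4264 it was 12.66 (SE 0.93), all 3 with a limma adjusted p of at most 2.58e-05. The direction at 4456 to 4504 and 4527 to 4558 depends on the spike-in: scaled instead to equal library totals the differences were -2.22 and -1.12, and at equal totals of the contig they were -1.77 and -0.67.

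The 3 largest fitted differences belonged to regions with few or no untagged peaks. Pho92-HTP peaks at 4780 to 4819 scored 1703 and 1568. Untagged wild type had none listed there, although untagged peaks of 2.01 and 1.84 lay 6 and 5 nt away. At 4128 to 4184 scores were 115 and 142 in Pho92-HTP with no listed untagged peak, the nearest untagged peaks lying 30 and 32 nt away with scores of 4.68 and 0.891. At 2909 to 2947 scores were 592 and 136 in Pho92-HTP against no listed peak and 0.0144 in untagged wild type. The limma adjusted p was 2.66e-06, 6.17e-06 and 7.41e-04 in that order, and each rests on the listing as well as on levels.

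**Figure D5:**
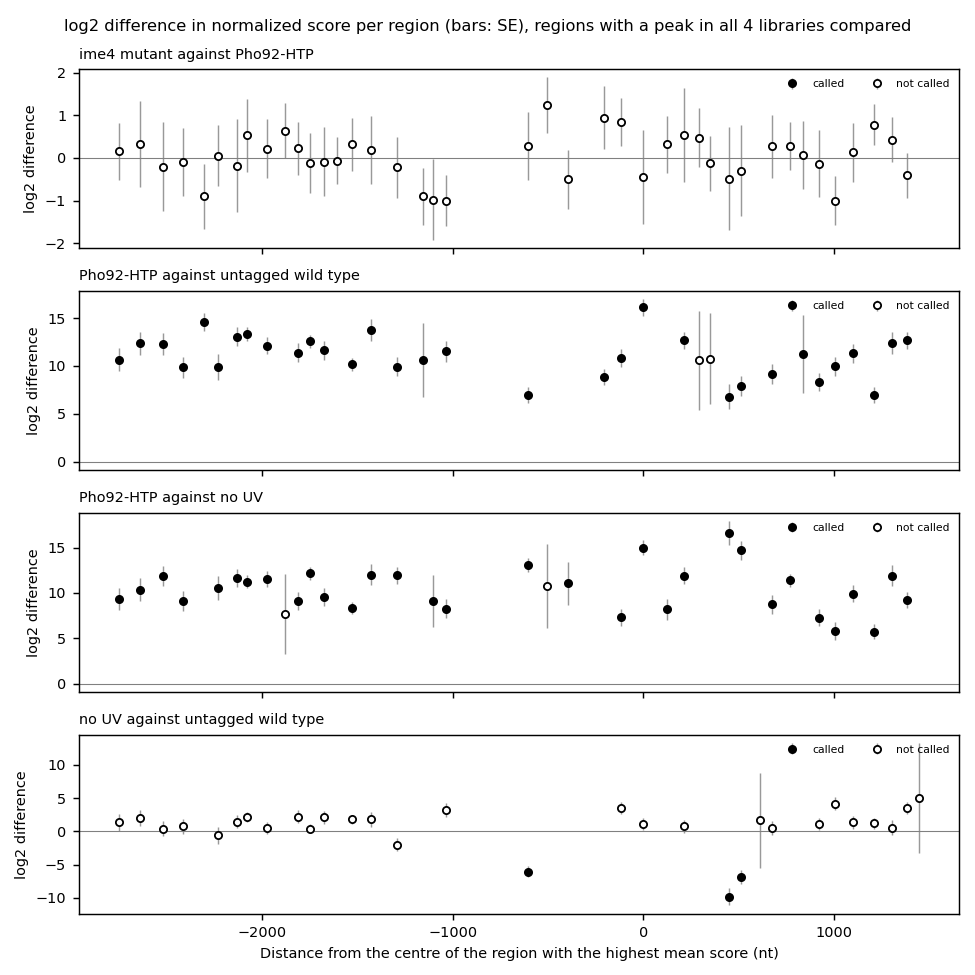
log2 difference in normalized score with its SE for regions with a peak in all 4 libraries compared, by distance in nt from the centre of the region at 4013 to 4046. Filled points passed the limma test and open points did not. Differences between the ime4 mutant and Pho92-HTP lie between -1.002 and 1.25, those of Pho92-HTP over its controls lie above 5, and in the lowest panel 3 regions fall below -5.

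Against no UV, Pho92-HTP was higher at 39 of the 51 tested regions, where 93.6% of all 951 tested regions were higher by the same test, and lower at 1, where 0.105% of all were. That 1 region of the contig is also the single region called lower in the series. It was listed in no UV alone and so passed the filter only through the group where it was high. Its call therefore rests on the filter and the listing. As in the untagged comparison, the filter leaves the shares called not comparable. In the 34 regions listed in all 4 libraries the log2 difference ran from 5.73 to 16.62 with a median of 10.43, against a median of 16.12 over all tested regions, and 32 passed the test. The order of regions was not that of the untagged comparison. The widest margin among listed regions was at 4456 to 4504, at 16.62 (SE 1.29, 95% interval 13.44 to 19.81, limma adjusted p = 3.51e-05), a 281-fold height ratio. At 4013 to 4046 it was 15.003 (SE 0.86, interval 12.90 to 17.11, limma adjusted p = 9.67e-06), a height ratio of 181. At 4527 to 4558 the difference was 14.73 (SE 1.05) and the height ratio 148. The lowest height ratio, 6.14, was found at 5011 to 5055.

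Regions with no listed no UV peak made up the largest fitted differences. Pho92-HTP scored 33326 and 47350 at 1709 to 1740, 815 and 1121 at 2409 to 2432, and 5.72 and 17.5 at 3806 to 3844, and neither no UV library had a peak listed at these places. No UV peaks lay 28 and 31 nt away in the first case, 22 and 40 nt in the second, and 73 and 18 nt in the third. The region called lower, at 2089 to 2116, was listed in no UV with scores of 6.29 and 8.12 and in no other library. Pho92-HTP peaks lay 11 and 13 nt from it and scored 1413 and 857. Joining peaks within 50 nt left 6 regions of the contig to test. The joined region that holds this place also holds far stronger peaks, such as those at 1935 to 1967. Its difference of 11.09 therefore does not test this place by itself. Fixed windows of 100 nt also reversed the sign, so the direction depends on how regions are built. With either no UV library left out, the region at 2089 to 2116 no longer passed the filter, and 0 regions were called lower. Without ime4 mutant replicate 1, which shares the fit, 2 were called lower.

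The controls differ from each other in both the tag and irradiation, and these cannot be told apart in their comparison. Over all tested regions of the series, 5.57% were called higher in no UV than in untagged wild type and 1.26% lower. Of these 951 regions, 886 exceeded the score threshold in no control library, against 15 of the contig's 51. The filter therefore leaves the shares called not comparable here either. On the contig, no UV was higher than untagged wild type at 3 of 51 tested regions and lower at 5. With the deposited table's factors in place of the sheets' the numbers were 12 higher and 5 lower, without untagged wild type replicate 1 they were 10 higher and 5 lower, and without untagged wild type replicate 2 they were 5 higher and 7 lower. Among the 30 regions listed in all 4 control libraries, 3 were lower in no UV and 0 higher, while 25 of the 30 differences were positive, with a median of 1.27. At an unadjusted p of 0.05, 10 of the 51 regions were higher, and 27 with the table's factors. The 3 lower ones were those that led the untagged libraries. At 4456 to 4504 the difference, no UV minus untagged, was -9.82 (SE 1.29, 95% interval -13.00 to -6.64, limma adjusted p = 0.00733), at 4527 to 4558 it was -6.83 (SE 1.05, interval -9.40 to -4.25, limma adjusted p = 0.0140) and at 3410 to 3444 it was -6.09 (SE 0.82, interval -8.10 to -4.08, limma adjusted p = 0.00774). In scaled height, no UV was 0.0370, 0.104 and 0.123 times untagged wild type at these places, against a median of 1.46 over the 23 regions with such a ratio. With the table's factors these ratios were 0.0595, 0.170 and 0.206. Without no UV replicate 1 the call at 4527 to 4558 was lost, with a difference of -5.83.

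The remaining calls between the controls rest on regions unlisted in one of them. No UV scored 6.29 and 8.12 at 2089 to 2116, 0.498 and 0.712 at 4780 to 4819, and 0.170 and 1.11 at 4128 to 4184, where no untagged peak was listed. Untagged wild type scored 3.48 and 0.728 at 1709 to 1740 and 0.0169 and 0.0278 at 3806 to 3844, where no no UV peak was listed. At the first of these the fitted difference was -16.09. Joining peaks within 50 nt put this place in 1 region with others, such as 1935 to 1967, and that region had a difference of 0.74.

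To compare positions without the level of the contig, each library was scaled to the same contig total. Pho92-HTP was then higher than untagged wild type at 20 regions and lower at 4, where the same scaling called 69.9% of all 1054 tested regions higher and 0.474% lower. In the spike-in scaled fit the split had been 39 to 0, and it was 19 to 4 at equal library totals and 22 to 3 with a trimmed mean. Of the 4 lower regions 1, at 3410 to 3444, was listed in all 4 libraries, with a difference of -1.59 (SE 0.45, limma adjusted p = 0.0245). At 4013 to 4046 the difference was 7.54 (SE 0.37, limma adjusted p = 3.34e-05). Region 4456 to 4504 makes up most of the untagged total, which leaves a smaller share to the other untagged regions.

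Against no UV, the same scaling gave 6 regions higher and 14 lower in Pho92-HTP, where 39.4% of all 1054 regions were higher and 8.06% lower; the split had been 39 to 1 with the spike-in and was 17 to 4 with a trimmed mean. Of these, 3 higher and 12 lower regions were listed in all 4 libraries. The 3 higher ones were 4013 to 4046 at 2.45 (SE 0.37, limma adjusted p = 0.00267), 4456 to 4504 at 4.08 (SE 1.02, limma adjusted p = 0.0211) and 4527 to 4558 at 2.18 (SE 0.66, limma adjusted p = 0.0401). The 12 lower ones included 1589 to 1635 at -3.44, 2454 to 2547 at -4.19, 3862 to 3961 at -5.24 and 5178 to 5297 at -6.82. How regions passed the filter was not counted at equal contig totals, so shares of all regions are not compared with the contig's. No UV was higher than untagged wild type at 27 regions and lower at 6, where 22.2% of all were higher and 3.42% lower. With equal library totals it was higher at 3 and lower at 30, and with a trimmed mean higher at 10 and lower at 6. The regions at 3410 to 3444, 4456 to 4504 and 4527 to 4558 were lower in no UV under this scaling too, at -2.11, -5.84 and -2.85. Scaling moved the median difference of the contig's tested regions between no UV and untagged wild type to 4.73 at equal contig totals and -5.48 at equal library totals, against 0.75 with the spike-in, so the single regions are read relative to these medians.

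Most positions without a listed peak had one close by. Peaks were dense, with median distances of 67 to 98 nt between neighbouring summits, so such closeness is common along the contig. In the tested regions where a group of 2 libraries had no listed peak there were 42 cases of a library without one, and in 41 of them the library had a peak within 50 nt; the largest gap was 73 nt. Summit positions were shared between groups to different degrees. Of the plus-strand summits of the Pho92-HTP libraries, 76.7% to 83.3% lay within 5 nt of a summit in an ime4 mutant library, compared with 73.3% and 78.6% between the Pho92-HTP replicates. The share was 33.3% to 38.3% for no UV and 51.7% to 58.3% for untagged wild type. The no UV replicates shared 50.0% and 46.2% of their own summits, and the untagged replicates 60.4% and 59.3%. Of 20 regions with exactly 1 peak in every library, 9 had all 8 summits within 5 nt. The summits lay between 4029 and 4031 at the region of highest score and between 1949 and 1951 at 1935 to 1967, but between 4481 and 4490 at 4456 to 4504.

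Replicates agreed more closely in the ime4 mutant than in untagged wild type. The median absolute log2 difference in normalized score between the replicates was 0.66 over 50 regions in the ime4 mutant, 0.75 over 46 in Pho92-HTP, 0.82 over 40 in no UV and 1.91 over 44 in untagged wild type. Untagged replicate 2 was higher than replicate 1 in 4 of those 44 regions, with a median difference of -1.86. The table's factors made that median -0.51 and the median absolute difference 0.98 in untagged wild type, and 0.94 in no UV. The largest single difference was 2.27 in the ime4 mutant, 5.46 in Pho92-HTP, 3.87 in no UV and 6.90 in untagged wild type.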

How the data were processed

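The authors deposited 1 peak list per library, not pooled, and 1 normalization table. Per the submitters' processing notes, cutadapt and Bowtie2 2.4.1 were used, with the fission yeast build ASM294v2; the peak caller, the SK1 build and whether positions count from 0 or 1 are not given in the sources used here. Per the file headers each peak has a raw h2w score and, except in Pho92-HTP replicate 1 (factor 1), a normalized score. From the values this is the raw score times a factor. In the irradiated Pho92-HTP groups it is the factor deposited for that library, and in the controls the factors are exchanged between the groups, as described above. The deposited factors are ratios of spike-in scores. The deposited table also gives the count of peaks per library (2138 for no UV replicate 2, whose list holds 2462).

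Heights are the square root of score times width, rescaled for Gaussian smoothing (SD 15 nt); 63.3% to 92.4% of the 32-nt peaks of a library came within 0.01 of whole reads. Summed heights were scaled by the square root of the factor, because the score is a squared height; the plan had named the factor itself. Regions above 0.9 in at least 2 libraries of a fit were tested over all contigs. A count test had been planned for raw counts. The deposited unit being a score, limma with a mean-variance trend (version 3.58.1, R version 4.3.3) was run on log2(normalized score + 2.28e-05), where the added value is percentile 5 of all scores, with Benjamini-Hochberg adjustment and a threshold of 0.05. The ime4 mutant was fitted against Pho92-HTP on 4 libraries, the rest on all 8. Where a group has no listed peak its spread is 0, and SE and p then rest partly on the listing. The code was tested on simulated data. P-values rest on the spread between the 2 libraries of each group, pooled over all groups in a fit. That spread is also drawn towards the mean-variance trend over all tested regions.

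Named regions are the 6 of highest mean score, up to 3 calls of largest difference per direction and comparison, and the 3 highest on the minus strand; others are said to be chosen after seeing values. Members and rules were chosen with earlier results of these data known. Fixed windows of 100 nt and root-scaled totals, with either set of factors, were alternatives added after seeing the data. Other steps used matplotlib 3.10.9, scipy 1.17.1, numpy 2.4.6, pandas 2.3.3 and Python 3.11.15.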

Additional observations from a re-analysis of the deposited data

How the results depend on the processing

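Depth is unknown and 2 libraries a group limit all tests. The counts of calls move mostly with the scaling, with the joining of peaks and, for no UV against untagged wild type, with the factors. A replicate block (the replicate number as a covariate) left the counts at 1 higher and 0 lower for the ime4 mutant against Pho92-HTP, 39 and 0 for Pho92-HTP against untagged wild type, 39 and 1 for Pho92-HTP against no UV and 3 and 5 for no UV against untagged wild type. Deviations of same-numbered libraries correlated at -0.06 to 0.05 over 951 regions. Such a correlation cannot show a shift that is common to all regions of a library. Of the 951 regions, 886 exceeded the score threshold in no control library, so control libraries add little to it. Whether same-numbered libraries share more than a number, such as a batch, was therefore not tested. The counts kept within 1.5 times, in all comparisons, with a filter at 5, without the trend and with summed heights.

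For the ime4 mutant against Pho92-HTP the number called higher was 3 with a trimmed mean, 6 without a filter, 0 with peaks within 50 nt joined, 0 in fixed windows of 100 nt and 0 to 3 with 1 library left out; the number called lower was 2 without a filter. For Pho92-HTP against untagged wild type the number higher was 19 at equal library totals, 22 with a trimmed mean, 20 at equal contig totals, 6 (of 6 tested) with peaks joined and 37 to 41 with 1 library left out. The number lower was 1 on raw scores, 4 at library totals, 3 with a trimmed mean, 4 at contig totals, 1 without a filter and 0 to 2 with 1 library left out. For Pho92-HTP against no UV the number higher was 17 with a trimmed mean, 6 at contig totals, 6 with peaks joined and 38 to 41 with 1 library left out, and the number lower was 4, 14, 0, 0 in fixed windows, and 0 to 2. For no UV against untagged wild type the number higher was 5 on raw scores, 12 with the table's factors, 10 with a trimmed mean, 27 at contig totals, 0 with peaks joined and 2 to 10 with 1 library left out. The number lower was 30 at library totals, 3 without a filter, 2 with peaks joined, 3 in fixed windows and 5 to 7 with 1 library left out. The causes were not tested, except that joining leaves 6 regions to test.

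The log2 ratio of summed scores of the ime4 mutant to Pho92-HTP was -0.31, and 0.57 on raw scores. That of Pho92-HTP to untagged wild type was 8.57, and 7.19 on raw scores, 5.00 on heights and 5.36 on heights with the table's factors. That of Pho92-HTP to no UV was 12.55, and 10.44 on raw scores, 11.83 with the table's factors, 12.09 without the strongest region, 5.75 on heights and 5.39 on heights with the table's factors. That of no UV to untagged wild type was -3.98, and -2.54 with the table's factors, -0.75 on heights and -0.030 on heights with the table's factors. In windows of 500 nt the mean rho was 0.964 between the ime4 mutant and Pho92-HTP, and 0.597 between no UV and untagged wild type.

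Some named regions changed sign. For the ime4 mutant against Pho92-HTP, raw scores gave 0.70 at 1880 to 1913, 0.44 at 4013 to 4046, 0.40 at 4456 to 4504 and 0.59 at 4527 to 4558, and a trimmed mean gave 0.81, 0.55, 0.51 and 0.70 there. Contig totals gave 0.13 at 1880 to 1913 and 0.015 at 4527 to 4558. Joined peaks gave -0.35 at 4223 to 4264, and -0.032 at 1455 to 1472 and 1935 to 1967. These last places then form 1 region, which also holds 1709 to 1740 and 2089 to 2116. With 1 library left out the values were -1.28 to 0.92 at 1880 to 1913, -1.19 to 0.31 at 4013 to 4046, -0.38 to 1.47 at 4223 to 4264, -1.47 to 0.50 at 4456 to 4504 and -1.21 to 0.62 at 4527 to 4558. For Pho92-HTP against untagged wild type, at 4456 to 4504 and 4527 to 4558, library totals gave -2.22 and -1.12, a trimmed mean -1.24 and -0.15, and contig totals -1.77 and -0.67. For Pho92-HTP against no UV, contig totals gave -0.92 at 1880 to 1913, -1.30 at 1935 to 1967 and -0.64 at 4223 to 4264, and at 2089 to 2116 joined peaks gave 11.09 and fixed windows 6.45. For no UV against untagged wild type, library totals gave -5.14 at 1880 to 1913, -4.46 at 1935 to 1967, -5.47 at 4013 to 4046 and -5.83 at 4223 to 4264. Joined peaks gave 0.74 at 1709 to 1740, and fixed windows gave 1.56 at 1709 to 1740, -10.50 at 1880 to 1913 and -3.92 at 4780 to 4819.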
